A study of Mus musculus with 2 samples.

Results

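The genes described were 10 stress-responsive genes of the mouse lung, chosen by symbol from the 32285 genes counted. They were 8 immediate-early genes, Fos, Fosb, Jun, Junb, Jund, Atf3, Egr1 and Ier2, and 2 heat shock genes, Hspa1a and Hspa1b. All 10 were found in both libraries. The droplet-based 3′ scRNA-Seq experiment compared a library labelled Cebpa FF, made from Cebpa fl/fl lungs, with a library labelled Cebpa KO, made from Cebpa ΔSftpc lungs. In both genotypes Cebpa was flanked by loxP sites, and only the latter carried a tamoxifen-inducible Cre driven by Sftpc, whose promoter is active in alveolar type II (AT2) cells, to delete it there. Lungs were taken 26 weeks after the first of 5 tamoxifen injections of 75 mg/kg, with a further weekly round described for analyses later than 3 months, the mice had mixed genetic backgrounds and were 3 months old unless stated otherwise, and the methods count 3 mice per genotype. Cells do not carry the mouse they came from, so there were no replicates, no p-value was computed, and an effect of genotype cannot be told apart from a difference between 2 preparations.

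Immediate-early genes are transcribed within minutes of a stimulus without new protein synthesis. Fos and Jun family proteins pair to form the transcription factor AP-1, and Egr1 is a zinc finger factor induced by serum and growth factors. Hspa1a and Hspa1b encode the inducible HSP70 chaperone and are switched on by heat shock factor 1 when proteins unfold. Both groups are known to be induced by enzymatic digestion of tissue at body temperature, as well as by signals inside the living organ. The lungs here were digested with Liberase and DNase I for 40 minutes at 37°C after perfusion with ice-cold PBS. Whether both genotypes were prepared on the same day, and how long cells waited before loading, were not given in the sources used here.

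The heat shock genes are near copies of each other, and 1 immediate-early promoter held the same heat shock element core, so these 3 promoters are shown. Positions are those of RefSeq for GRCm38.p6, all on the minus strand: Jun at chr4:95052173-95052472, Hspa1a at chr17:34972107-34972406 and Hspa1b at chr17:34959189-34959488. Each runs from 250 bases before to 50 bases after the transcription start, 5′ to 3′, and the capitals mark GAANNTTC, the core pair of inverted repeats bound by heat shock factors.
Jun: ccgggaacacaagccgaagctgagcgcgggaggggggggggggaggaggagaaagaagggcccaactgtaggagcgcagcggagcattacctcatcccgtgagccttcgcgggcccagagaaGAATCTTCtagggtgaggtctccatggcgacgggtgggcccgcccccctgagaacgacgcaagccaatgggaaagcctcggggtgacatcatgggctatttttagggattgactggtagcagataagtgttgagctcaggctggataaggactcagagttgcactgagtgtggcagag
Hspa1a: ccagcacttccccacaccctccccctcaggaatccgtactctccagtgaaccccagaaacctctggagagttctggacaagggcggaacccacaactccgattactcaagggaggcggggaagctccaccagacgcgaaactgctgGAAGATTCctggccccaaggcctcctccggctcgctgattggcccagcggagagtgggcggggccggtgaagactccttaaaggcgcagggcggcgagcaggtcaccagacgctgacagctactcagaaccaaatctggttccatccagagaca
Hspa1b: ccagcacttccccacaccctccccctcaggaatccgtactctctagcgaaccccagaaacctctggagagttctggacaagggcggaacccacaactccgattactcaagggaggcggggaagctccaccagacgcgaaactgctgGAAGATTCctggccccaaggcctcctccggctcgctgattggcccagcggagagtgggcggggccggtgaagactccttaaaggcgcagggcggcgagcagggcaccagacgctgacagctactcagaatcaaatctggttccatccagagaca
Promoters of 8 of the 10 genes were matched; those of Egr1 and Ier2 were not used here. GAANNTTC, searched on both strands, was found in these 3 of the 8 and in 7.86% of 32851 promoters of the same length. In both heat shock genes it began 104 bases before the start, and in Jun 128 bases before. The windows of Hspa1a and Hspa1b shared 296 of 300 bases. TATAAA was found in Fos and Junb and in 13.62% of all promoters. CCAAT was found in 5 of the 8, against 37.41% of all. The cAMP response element TGACGTCA, the AP-1 site TGANTCA and the CArG box were in none of the 8, against 1.79%, 7.81% and 1.63% of all promoters. These matches describe letters in a window, not binding. Sites outside the window, or with letters other than those searched, would not be found, so a missing match does not show that a gene lacks the element.

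In GRCm38 with GENCODE annotation, Jun (chr4:95049034-95052222), Junb (chr8:84974484-84978718), Jund (chr8:70698949-70700616), Ier2 (chr8:84661331-84662852), Hspa1a (chr17:34969190-34972156) and Hspa1b (chr17:34956436-34959238) were single-exon genes. Fos (chr12:85473890-85477273), Fosb (chr7:19302696-19310051), Atf3 (chr1:191170296-191218039) and Egr1 (chr18:34859823-34864984) had introns. Reads of Hspa1a and Hspa1b can be confused where their transcripts are alike. Of all 90-base windows of the Hspa1a transcript, 49.31% were also in Hspa1b, and 52.28% in the other direction. In the last 500 bases of either transcript, where 3′ reads fall, the share was 0%.

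The Cebpa fl/fl library held 11721 cell barcodes and 69200420 unique molecular identifiers (UMIs, each 1 captured RNA molecule), and the Cebpa ΔSftpc library 13373 barcodes and 64697396 UMIs, with 45 barcode sequences in common. After the study's filter (200 or more genes, no more than 20% mitochondrial counts), 11487 and 13238 cells were kept. Their median was 4835 UMIs in the Cebpa fl/fl and 2607 in the Cebpa ΔSftpc library, while the median mitochondrial share was close, at 3.19% and 3.11%. Cells were given a type from raw counts of marker genes and called "-like", and 14 types with at least 20 cells in both libraries were compared. No type could be given to 28.1% and 47.6% of cells. A loss of Cebpa was not seen beyond counting error in AT2-like cells. It was at 155.7 counts per 1000000 UMIs (CPM; 95% counting interval, 147.6–164.1) in the 441 Cebpa fl/fl cells and at 135.7 (117.2–156.3) in the 208 Cebpa ΔSftpc cells. The paper reported reduced Cebpa in lungs of this model, earlier after tamoxifen than here, by immunostaining, qPCR and Western blot. It also reported reduced Cebpa staining in lineage-traced cells with the deletion. Whether the counted 3′ end lies in the deleted part, and whether the gated cells had recombined, was not tested. The library names below are therefore labels of the 2 preparations. Wherever a pair of values is given, Cebpa fl/fl comes first. In the 12 types other than leukocytes, Ptprc, which encodes the leukocyte antigen CD45, was at 0 to 3.06 CPM in the Cebpa fl/fl and at 23.0 to 100 CPM in the Cebpa ΔSftpc library, and the summed neutrophil genes S100a8 and S100a9 were at 0 to 15.3 and 149.2 to 519.7 CPM. The 32 AT1-like cells of the Cebpa ΔSftpc library also held endothelial RNA, with Pecam1 at 522.8 CPM against 88.1 in the other library and Cdh5 at 441.5 against 106.5, so the AT1-like label was in doubt and counts are given with and without it.

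Immediate-early RNA was abundant in every type and differed more between types than between the libraries. The sum of the 8 genes over all cells was 3838 CPM in the Cebpa fl/fl and 4582 CPM in the Cebpa ΔSftpc library. In the Cebpa fl/fl library it ran from 835 CPM in platelet-like cells to 6494 in adventitial fibroblast-like cells (the collagen-rich cuffs around airways and vessels), and in the Cebpa ΔSftpc library from 1482 in platelet-like to 7489 in ciliated-like cells. The order of types was much the same in both libraries, with a Spearman correlation of 0.90 over the 14 types. Between neighbours in that order the counting intervals overlapped for 3 of 13 pairs in the Cebpa fl/fl library, among them adventitial fibroblast-like and smooth muscle-like cells and aerocyte-like and large vessel endothelial-like cells. In the Cebpa ΔSftpc library 7 of 13 pairs overlapped, and adventitial fibroblast-like, B cell-like, smooth muscle-like, alveolar fibroblast-like and T cell-like cells formed an unbroken run from 5566 to 4856 CPM. All intervals cover counting error only, and cells vary beyond it.

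**Figure D1:**
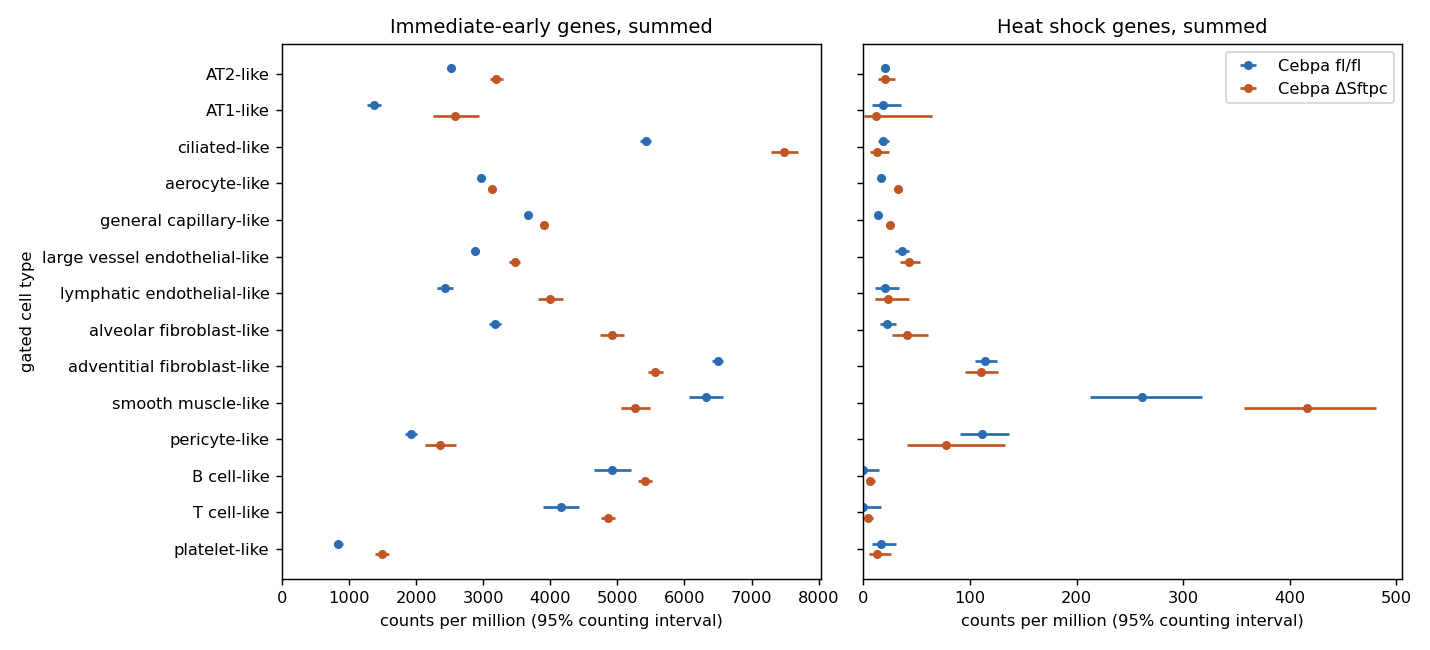
Summed CPM (horizontal axis, 95% counting interval) of the 8 immediate-early genes and of the 2 heat shock genes in each of 14 gated cell types (vertical axis), for the Cebpa fl/fl and Cebpa ΔSftpc libraries. The immediate-early sum was higher in the Cebpa ΔSftpc library in 12 types and lower in adventitial fibroblast-like and smooth muscle-like cells, and heat shock RNA was highest in smooth muscle-like cells of both libraries, at 261.1 and 415.7 CPM.

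The AP-1 partners of the Fos family followed each other across types. Here and below, types are ranked among the 14 compared. Fos was highest in ciliated-like cells, at 1504 and 1974 CPM in the Cebpa fl/fl and Cebpa ΔSftpc libraries, and was also high in smooth muscle-like cells, at 1445 and 942.3 CPM. The tenth of ciliated-like cells highest in Fos held 54.8% and 88.6% of it. In aerocyte-like cells, the capillary cells of gas exchange, Fos was only at 82.4 and 132.3 CPM. It was also high in adventitial fibroblast-like cells, at 1241 and 913.6 CPM, while the contractile pericyte-like cells held 219.6 and 339.5 CPM. Fosb was lower throughout, with 369.2 and 200.9 CPM in smooth muscle-like, 202.4 and 518.5 in ciliated-like and 35.3 and 48.1 in aerocyte-like cells. Over the 28 profiles (14 types in 2 libraries), log2 CPM of Fos and Fosb had a Pearson r of 0.92, the highest of the member pairs. Profiles of 1 library share its depth and free RNA, so these correlations are descriptions.

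Jun family genes differed between capillary cells and lymphocytes. Jun was highest in capillary cells: 1880 CPM (1853–1908) in Cebpa fl/fl and 1647 (1621–1673) in Cebpa ΔSftpc aerocyte-like cells, and 1873 (1853–1893) and 1609 (1585–1633) in general capillary-like cells. In lymphocytes Jun was low, at 337.6 and 242.6 CPM in B cell-like and 176.5 and 321.4 CPM in T cell-like cells. Junb, which encodes a family member that can replace Jun in AP-1, was the reverse between these types. It was at 1802 and 2150 CPM in B cell-like and 1969 and 2432 CPM in T cell-like cells, but at 165.8 and 357.8 CPM in aerocyte-like cells. Jun and Junb had an r of only −0.20 over the 28 profiles. Adventitial fibroblast-like cells were rich in both, with 1113 and 824.1 CPM of Jun and 1027 and 892.1 CPM of Junb. Jund, whose level is known to depend least on stimuli, was at 150.2 CPM or more in every compared type. It was highest in B cell-like cells, at 1735 and 1793 CPM, and over the 28 profiles it followed Junb (r = 0.68).

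Egr1, Atf3 and Ier2 had patterns of their own. Egr1 was highest in adventitial fibroblast-like cells, at 1395 and 1228 CPM, with 1079 and 565.8 CPM in smooth muscle-like cells. B cell-like cells held 39.3 and 70.6 CPM of it. Pericyte-like cells held 152.2 and 285.9 CPM. Atf3, a stress-induced factor of the ATF/CREB family, was highest in ciliated-like cells, at 351.8 and 696.1 CPM, and next in smooth muscle-like cells, at 271.6 and 508.1 CPM. The tenth of ciliated-like cells highest in Atf3 held 87.4% and 94.5% of it. Ier2, which encodes a nuclear protein induced by growth factors, ran from 20.5 to 447.8 CPM in the Cebpa fl/fl and from 83.4 to 535.6 CPM in the Cebpa ΔSftpc library, and it was closest to Junb (r = 0.74).

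Heat shock RNA was highest in smooth muscle-like, adventitial fibroblast-like and pericyte-like cells, and scarce in the other types, alveolar fibroblast-like cells included. In smooth muscle-like cells Hspa1a was at 166.1 CPM in the Cebpa fl/fl and 261.0 CPM in the Cebpa ΔSftpc library, and Hspa1b at 94.9 and 154.7 CPM. Adventitial fibroblast-like cells held 57.4 and 53.6 CPM of Hspa1a. Pericyte-like cells held 81.3 and 65.5 CPM of it. In the other 11 types the 2 genes together reached at most 42.8 CPM (34.1–53.1), which overlaps the 77.4 CPM (41.2–132.4) from 13 UMIs in the Cebpa ΔSftpc pericyte-like cells. In the Cebpa fl/fl library neither gene was found among the 254730 UMIs of B cell-like and the 220980 of T cell-like cells, for which a limit of 3 counts is 11.8 and 13.6 CPM, and the 11 and 7 UMIs (6.16 and 4.19 CPM) of the other library lie under these limits. Hspa1a and Hspa1b had an r of 0.86 with each other and of 0.35 and 0.32 with Fos, so across types they were less like Fos than like each other. With the other immediate-early genes r varied, from 0.53 and 0.59 with Egr1 to −0.22 and −0.20 with Ier2.

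**Figure D2:**
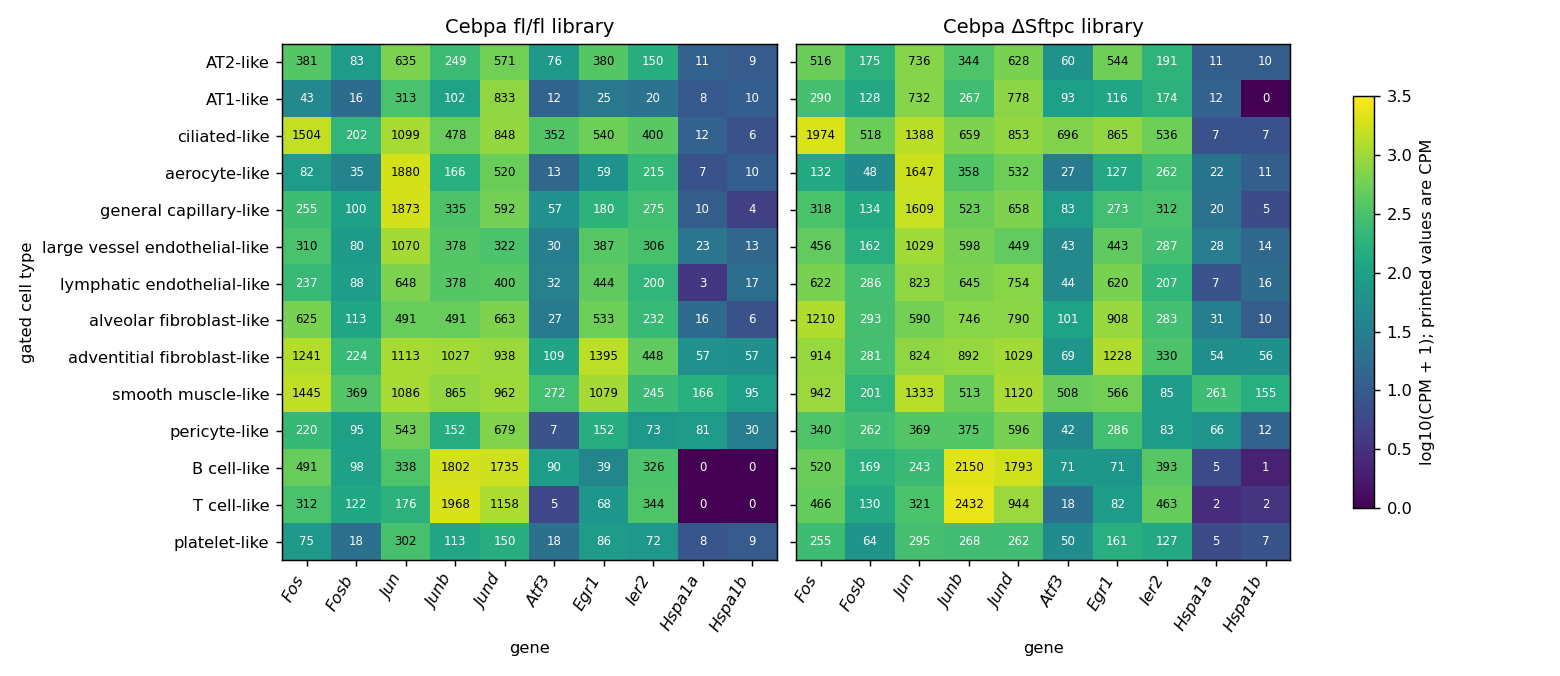
Level of each of the 10 genes (columns) in each of 14 gated cell types (rows), 1 panel per library, coloured by log10(CPM + 1) with the CPM printed in each cell. Among these 14 types, Jun was highest in aerocyte-like and general capillary-like cells, Junb in lymphocytes and Fos in ciliated-like cells of both libraries.

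The immediate-early sum was somewhat higher in the Cebpa ΔSftpc library in most types, by less than 2-fold in each. It exceeded counting error upward in 12 of 14 types (11 of 13 without AT1-like cells) and downward in 2, with a median log2 ratio of Cebpa ΔSftpc over Cebpa fl/fl of 0.28, and without AT1-like cells of 0.27. The ratio was 0.92 in AT1-like, 0.83 in platelet-like, 0.72 in lymphatic endothelial-like and 0.63 in alveolar fibroblast-like cells. It was 0.08 (95% counting interval, 0.05–0.10) in aerocyte-like and 0.09 (0.07–0.11) in general capillary-like cells. The most numerous gated cells were thus those that differed least. In pericyte-like cells, 1 cell of the Cebpa ΔSftpc library with 9707 UMIs carried 171 of the 395 immediate-early UMIs. Without the highest cell of each library (a setting added after seeing the data) the pericyte ratio changed from 0.29 to −0.30, and the sum was higher in 11 and lower in 3 types. In ciliated-like cells, 1 cell held 1161 of 5691 such UMIs, and the ratio was 0.29 without the highest cells in place of 0.47. The direction of the immediate-early sum in this type depended on the deepest cells: it was −0.50 without the 2% of cells with the most UMIs, −0.10 with each cell thinned to 1000 UMIs and −0.21 as a mean of single-cell CPM.

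By single genes, Fosb was most often 2-fold or more apart. It was higher beyond counting error in 12 types and lower in 1, with a median log2 ratio of 1.04, and 2-fold or more higher in 8. These 8 included AT1-like cells, with 8 and 11 UMIs of Fosb, and platelet-like cells, with 12 and 36. Junb was higher in 12 types and lower in 2 (median 0.62), Fos higher in 11 and lower in 2 (median 0.57), and Egr1 higher in 10 and lower in 2 (median 0.64). Atf3 was higher in 9 and lower in 2 of the 13 types with at least 3 UMIs of it in each library (median 0.90). Among these were pericyte-like cells, with 6 and 7 UMIs. Jun was the exception, higher in 7 types and lower in 5, with a median of 0.09. Jund (median 0.14) and Ier2 (median 0.28) were each higher in 8 types. Without AT1-like cells, Fosb was higher in 11 types and 2-fold or more in 7, Fos in 10 (median 0.55), Junb in 11 (median 0.60), Egr1 in 9 (median 0.60), Atf3 in 8 of 12 (median 0.72) and Ier2 in 7 (median 0.27). Jun was then higher in 6 types and lower in 5, and its median turned to −0.03, while Jund stayed at 8 types and 0.14. With AT1-like cells kept but without the highest cell of each library, Atf3 was higher in 7 and lower in 2 of 12 types. Fos was then higher in 10 and lower in 3 types, and its ratio in pericyte-like cells was −0.88 in place of 0.63. Jun was then higher in 6 and lower in 4 types, and its ratio in B cell-like cells was 0.36 in place of −0.48. Over all genes the median log2 ratio within a type lay between −0.08 and 0.12.

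**Figure D3:**
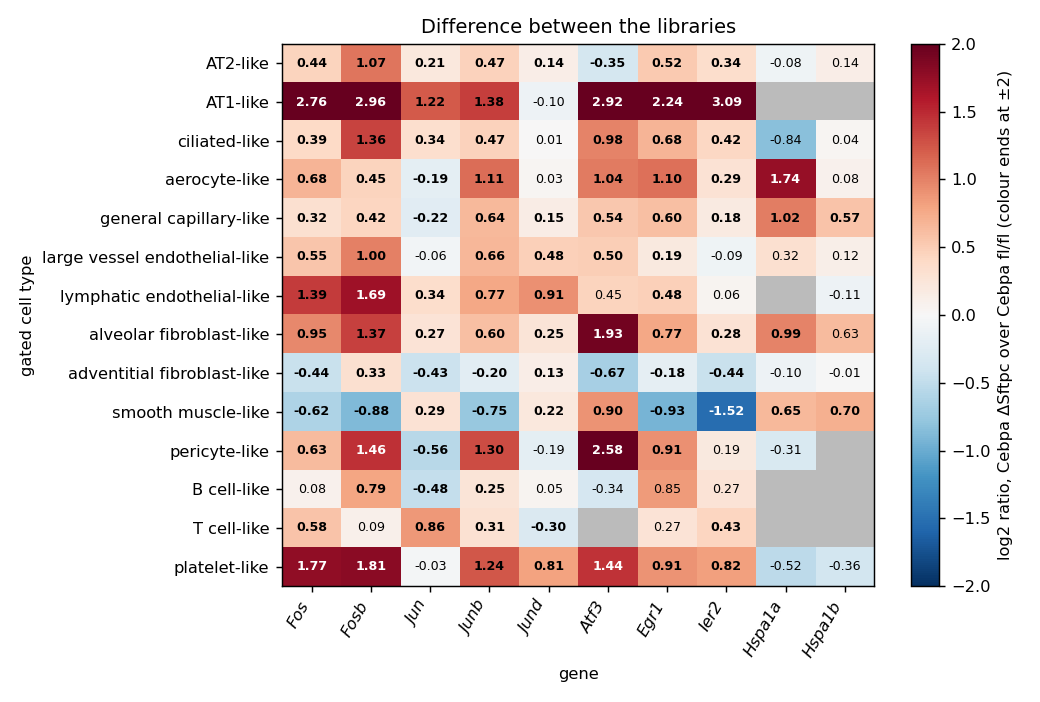
Log2 ratio of Cebpa ΔSftpc over Cebpa fl/fl for each gene (columns) in each gated type (rows). Fosb and Junb were mostly higher in the Cebpa ΔSftpc library, Jun was lower in capillary types, and the rows of smooth muscle-like and adventitial fibroblast-like cells held the most values below 0.

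Genes called, meaning at least 2-fold apart with an interval that excludes no difference, are counted here among those with at least 50 UMIs in the type, beside the share of all such genes that were called the same way. In aerocyte-like cells 4 of 10 members were called higher (Junb, Atf3, Egr1 and Hspa1a) against 4.01% of all genes, and none lower against 0.631%. The call of Hspa1a rested on 1 cell, and with at least 3000 UMIs a cell the ratios of Junb, Egr1 and Atf3 were 0.94, 0.91 and 0.77, under 2-fold. After subtraction of leukocyte RNA scaled on Ptprc, Junb (0.87) and Atf3 (0.75) were under 2-fold as well. In AT2-like cells 1 of 10 was called higher (Fosb, from 83.2 to 174.6 CPM) against 3.33%, and none lower against 0.331%. In AT1-like cells Jun and Junb of 3 members tested were called higher, against 5.3%, and none lower against 5.55%. Neither call held throughout: 1 cell held 28 of the 63 Jun UMIs, without which Jun was at a ratio of 0.75, and Junb was at 0.74 after the Ptprc subtraction. Fosb was the called gene in ciliated-like cells (1 of 8, background 2.37% higher and 1.15% lower) and in large vessel endothelial-like cells (1 of 10, background 1.15% and 1.11%). Hspa1a was the called gene in general capillary-like cells (1 of 10, background 2.85% and 1.24%). In ciliated-like cells Fosb was at 0.38 without the 2% of cells with the most UMIs. Of these types, aerocyte-like cells had the most members called, but the number tested differed, and the 4 of 10 were a smaller share than the 2 of 3 in AT1-like cells.

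Calls in the remaining types were also upward, with 1 exception. In lymphatic endothelial-like cells Fos (236.9 to 622.3 CPM) and Fosb (88.4 to 285.8 CPM) were called of 7 tested, against 1.61% higher and 1.88% lower. In alveolar fibroblast-like cells Fosb (113.3 to 292.8 CPM) and Atf3 (26.6 to 101.4 CPM) were called of 8, against 0.938% and 1.25%. In pericyte-like cells Fosb and Junb were called of 8, against 1.42% and 2.6%, and without the highest cell both were under 2-fold, at 0.95 and 0.80. Platelet-like cells had Fos (75.1 to 255.4 CPM) and Junb (113.4 to 267.9 CPM) of 6, against 4.8% and 1.08%. No member was called in adventitial fibroblast-like (1.3% and 0.79%), B cell-like (2.23% and 0.937%) or T cell-like cells (2.15% and 1.76%). In lymphocytes this rested on single Cebpa fl/fl cells, which held 10 of 25 Fosb UMIs in B cell-like and 18 of 27 in T cell-like cells. Without the highest cell of each library, Fosb was at 1.37 (0.62–2.23) in B cell-like and 1.53 (0.58–2.68) in T cell-like cells. Jun was then at 1.07 (0.55–1.63) in T cell-like cells, so these 3 ratios were 2-fold or more. In smooth muscle-like cells Ier2 was called lower, from 245.2 to 85.5 CPM, against 1.62% higher and 1.73% lower. Over all cells together Junb alone was called, from 450.1 to 1037 CPM, against 9.52% of all genes higher and 10% lower, and its log2 ratio was 0.76 in place of 1.21 without gated leukocytes. The calls of Fos and Fosb in lymphatic endothelial-like, Fosb and Atf3 in alveolar fibroblast-like and Ier2 in smooth muscle-like cells stayed 2-fold or more in each of 14 alternatives. The lowest ratios were 0.75 for Fosb in large vessel endothelial-like, 0.67 for Hspa1a in general capillary-like and 0.91 for Fos in platelet-like cells.

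In the capillary endothelium the sum barely differed, while its genes differed in opposite directions. In aerocyte-like cells Junb was at 165.8 CPM (157.7–174.2) and 357.8 CPM (345.8–370.2), in the Cebpa fl/fl and Cebpa ΔSftpc library in turn (log2 ratio 1.11), and Egr1 at 59.1 and 127.0 CPM, a ratio of 1.10. Jun, the bulk of the sum, was lower by 0.19 on the log2 scale. General capillary-like cells showed the same directions with smaller sizes, with Junb at 335 and 523.3 CPM (0.64), Egr1 at 179.9 and 273.4 CPM (0.60) and Jun at 1873 and 1609 CPM (−0.22). Jund differed little, with 520.1 and 532.0 CPM in aerocyte-like and 592.4 and 658.1 CPM in general capillary-like cells. The number of Jun UMIs per Junb UMI was 11.3 in the Cebpa fl/fl and 4.60 in the Cebpa ΔSftpc aerocyte-like cells, and 5.59 and 3.07 in general capillary-like cells. Jun per Junb was lower in the Cebpa ΔSftpc library in 10 of 14 types, beyond the counting error of all 4 counts. It was higher in smooth muscle-like (1.26 and 2.60) and T cell-like cells (0.0897 and 0.132), and within counting error in AT1-like and ciliated-like cells. In B cell-like cells, counted among the 10, 1 Cebpa fl/fl cell held 42 of the 86 Jun UMIs. Without the highest cell of each library, their Jun was at a log2 ratio of 0.36 (−0.09 to 0.84) in place of −0.48, and their Junb at 0.26. All types of the Cebpa ΔSftpc library other than leukocytes also held leukocyte RNA. Neutrophil-like and monocyte-like cells were rich in Junb and low in Jun. After subtraction of leukocyte RNA scaled on Ptprc, AT2-like cells, counted among the 10, held 634.6 and 751.3 CPM of Jun. They held 248.3 and 277.2 CPM of Junb. The log2 ratios were then 0.24 for Jun and 0.16 for Junb, so Jun per Junb was no longer lower in these cells. Junb of platelet-like cells, also among the 10, changed direction. The part of such RNA in the count of 10 types was not tested.

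Smooth muscle-like and adventitial fibroblast-like cells had lower immediate-early sums in the Cebpa ΔSftpc library. In smooth muscle-like cells (61 and 59 cells) the sum was 6324 CPM (6073–6582) and 5268 (5054–5489). Fos was at 1445 and 942.3 CPM, Egr1 at 1079 and 565.8, Junb at 865 and 512.7, and Fosb at 369.2 and 200.9. Jun, Atf3 and Jund went the other way, from 1087 to 1333, from 271.6 to 508.1 and from 962.5 to 1120 CPM, as did Hspa1a and Hspa1b. Depth was alike there, with a median of 6192 and 6232 UMIs per cell. In adventitial fibroblast-like cells (477 and 274 cells) the sum was 6494 CPM (6418–6571) and 5566 (5458–5676), with Fos at 1241 and 913.6, Jun at 1113 and 824.1, Ier2 at 447.8 and 330.5 and Atf3 at 108.9 and 68.5 CPM. Only Fosb and Jund were higher there, by 0.33 and 0.13 on the log2 scale. Median depth in adventitial fibroblast-like cells was 8593 and 5041 UMIs. By depth class, their sum was lower only at 8000 UMIs and over, at 6910 and 5676 CPM. It was higher at 1000 to 2000 UMIs (1889 and 3782 CPM), at 2000 to 4000 (4391 and 5413) and at 4000 to 8000 (5448 and 5978). Immediate-early genes thus differed in both directions within each of these types.

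In AT2-like cells, the type targeted by Cre, 7 of 8 immediate-early genes were higher beyond counting error in the Cebpa ΔSftpc library and Atf3 was lower, where 14.6% of all genes were higher and 3.78% lower. Fos was at 380.8 and 516 CPM, Egr1 at 380 and 544.2, Junb at 248.6 and 343.5, Jun at 634.6 and 735.8, and Atf3 at 76.3 and 60.1. The log2 ratio of the sum was 0.34 (0.29–0.38). Heat shock RNA did not differ beyond counting error, at 20.2 and 20.5 CPM, a log2 ratio of 0.02 (−0.60 to 0.59). Depth differed more in these cells than in any other compared type, with a median of 21055 and 1725 UMIs. Among cells with 8000 UMIs or more (400 and 48 cells) the log2 ratio of the sum was 0.32 (0.27–0.38).

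The heat shock genes showed no common difference between the libraries. Their sum over all cells was 32.6 and 33.4 CPM, a log2 ratio of 0.04 (−0.05 to 0.12). Of the 11 types with enough counts, 4 were higher beyond counting error and none lower: aerocyte-like (16.5 and 32.3 CPM), general capillary-like (13.3 and 24.9), alveolar fibroblast-like (22.0 and 40.9) and smooth muscle-like cells (261.1 and 415.7). In aerocyte-like cells 1 cell of the Cebpa ΔSftpc library decided the difference. This cell held 3 UMIs of the gate markers, the fewest that the gate allows, so its type was weakly supported. It had 3933 UMIs, of which 115 were Hspa1a, 43 Hspa1b and 106 Hspb1, a small heat shock protein gene, and it alone held 158 of the 300 heat shock UMIs of its type, while the next cell had 10. Without the highest cell of each library the aerocyte ratio was −0.07 (−0.41 to 0.27) in place of 0.97, and the call of Hspa1a was lost (0.60 in place of 1.74). The sum then stayed higher beyond counting error in general capillary-like cells, at 0.84 (0.58–1.10), and in smooth muscle-like cells, at 0.54. With all cells kept, it varied with depth in general capillary-like cells. At 8000 UMIs or more (365 and 372 cells) it was 17.8 (13.7–22.6) and 39.7 CPM (33.8–46.3). At 2000 to 4000 UMIs it was 10.3 and 11.9 CPM and at 4000 to 8000 UMIs 12.7 and 16.8 CPM, with overlapping intervals. In general capillary-like cells, Hspa1a was found in 3.89% (3.28–4.56%) and 7.51% (6.35–8.80%) of cells, and after thinning each cell to 1000 UMIs in 0.915% (0.631–1.28%) and 1.77% (1.22–2.49%).

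The difference in immediate-early RNA varied with the depth of the cells. Over all cells with 1000 to 2000 UMIs, the sum was 1837 and 4168 CPM, a log2 ratio of 1.18 (1.13–1.23), while in cells with 8000 UMIs or more it was 4142 and 4809 CPM, a ratio of 0.22 (0.20–0.23). In the Cebpa fl/fl library shallow cells held less immediate-early RNA than deep ones, at 2094 CPM under 1000 UMIs and 4142 CPM at 8000 and over. In the Cebpa ΔSftpc library the sum rose less between these classes, from 3991 to 4809 CPM. In aerocyte-like cells the ratio was 0.59, 0.89 and 0.47 in the 3 classes under 4000 UMIs, 0.04 (−0.00 to 0.08) at 4000 to 8000 and −0.02 (−0.06 to 0.01) above. In general capillary-like cells it was 0.81 under 1000, 0.79 at 1000 to 2000, 0.00 at 2000 to 4000, −0.11 at 4000 to 8000 and 0.06 above. Adventitial fibroblast-like cells crossed over, from 1.0 at 1000 to 2000 UMIs to −0.28 at 8000 and over. Shallow cells of the Cebpa ΔSftpc library also held leukocyte and hemoglobin RNA. Over all cells with 1000 to 2000 UMIs, leukocytes included, Ptprc was at 6.52 and 286.5 CPM. In aerocyte-like cells Ptprc was at 117.9, 129.8 and 103.4 CPM in the 3 shallower classes and 24.2 and 19.1 in the deeper, against at most 29.9 in any class of the Cebpa fl/fl library. Hemoglobin RNA there was at 6305, 3117 and 902.6 CPM and then 169 and 97.95 CPM, against at most 209.5. Their part in the result was not tested.

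**Figure D4:**
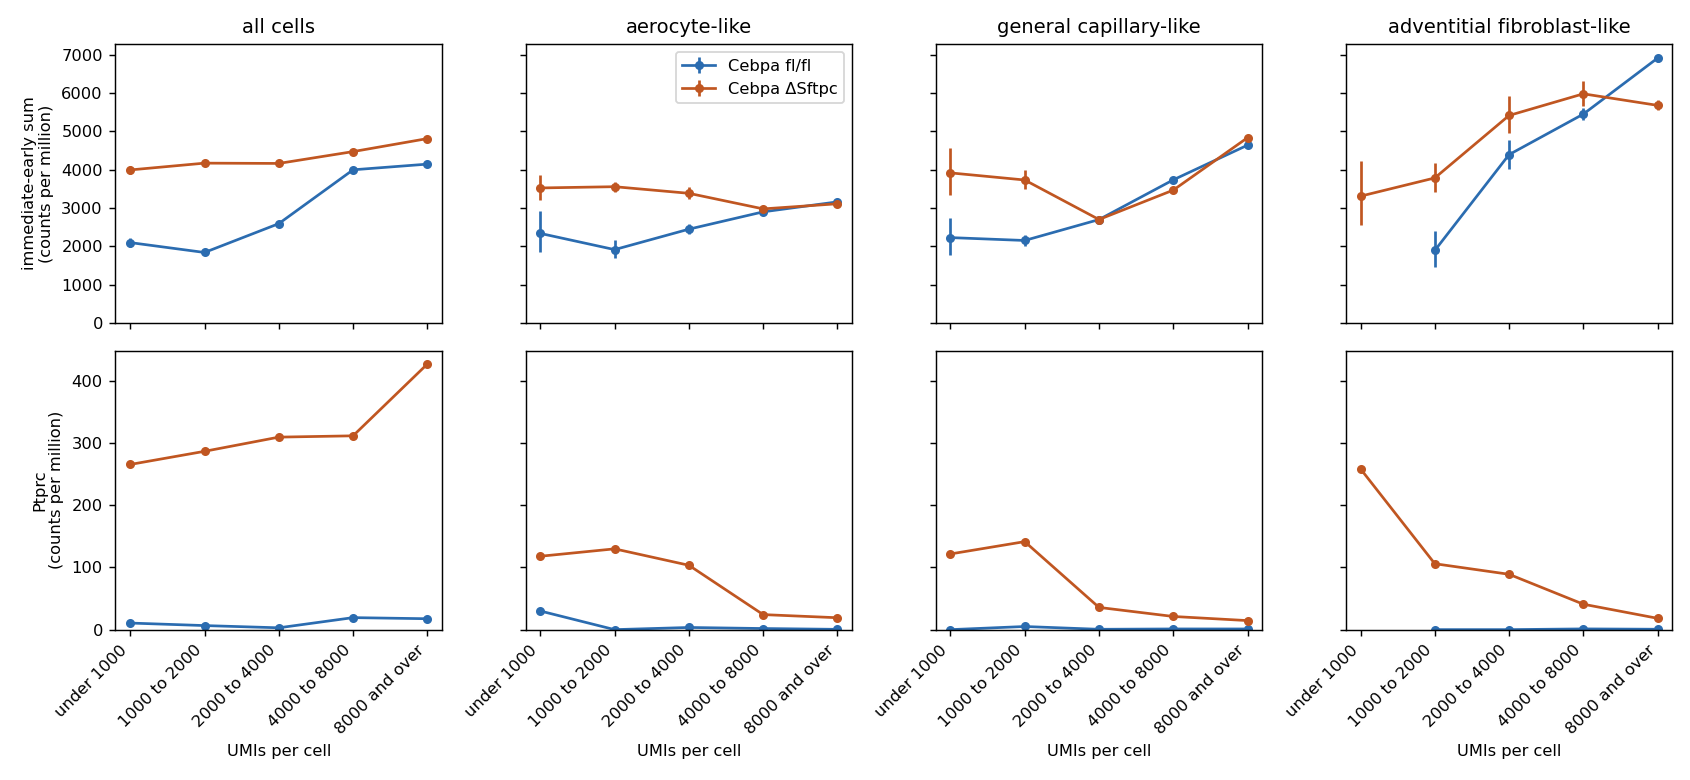
Summed CPM of the 8 immediate-early genes (top, 95% counting interval) and CPM of Ptprc (bottom) in 5 classes of UMIs per cell, for all cells and 3 gated types in both libraries. In aerocyte-like and general capillary-like cells the libraries lie apart under 2000 UMIs and close together at 4000 UMIs and over, and Ptprc of the Cebpa ΔSftpc library is lowest at 8000 UMIs and over in the gated types.

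Junb had a higher ratio than Jun in every depth class of both capillary types, deep cells included. In aerocyte-like cells with 8000 UMIs or more (417 and 498 cells) Junb was at 183.3 and 328.0 CPM, a log2 ratio of 0.84 (0.72–0.96), Egr1 at 54.6 and 106.4 (0.96, 0.74–1.19) and Jun at 1987 and 1719 (−0.21, −0.25 to −0.17). Fos was at 91.1 and 95.6 CPM there, a ratio of 0.07 (−0.12 to 0.26). In aerocytes with 1000 to 2000 UMIs the ratio of Fos was 2.62 and that of Junb 3.06. In general capillary-like cells with 8000 UMIs or more, Junb was at 501.3 and 696.6 CPM (0.47), Egr1 at 316.6 and 396 (0.32), Fos at 421.9 and 476 (0.17) and Jun at 2056 and 1758 (−0.23). In the deepest aerocytes Fos was thus within counting error, while Junb and Egr1 were higher and Jun lower beyond it.

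Members were also counted per cell. With each cell thinned to 1000 UMIs, leaving out 905 and 1505 shallower cells, at least 3 of the 8 immediate-early genes had a UMI in 23.8% (23.0–24.6%) and 44.3% (43.4–45.2%) of all cells. The shares were 14.2% and 29.3% in aerocyte-like, 22.4% and 31.3% in general capillary-like and 26.2% and 43.7% in AT2-like cells. In adventitial fibroblast-like cells they were 47.9% (43.2–52.5%) and 48.8% (42.5–55.2%), and in B cell-like cells 52.5% (36.1–68.5%) and 49.5% (43.7–55.4%), with overlapping intervals. Smooth muscle-like cells, whose sum was lower in the Cebpa ΔSftpc library, were at 32.2% (20.6–45.6%) and 46.3% (32.6–60.4%), also overlapping, and 15.3% and 1.85% of them had none of the 8. Platelet-like cells were at 2.03% and 12.6%. No type was taken to lack these genes, so none served as a background. Erythroid-like cells had the lowest sums, 282.1 CPM in 19 and 850.4 CPM in 49 cells.

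**Figure D5:**
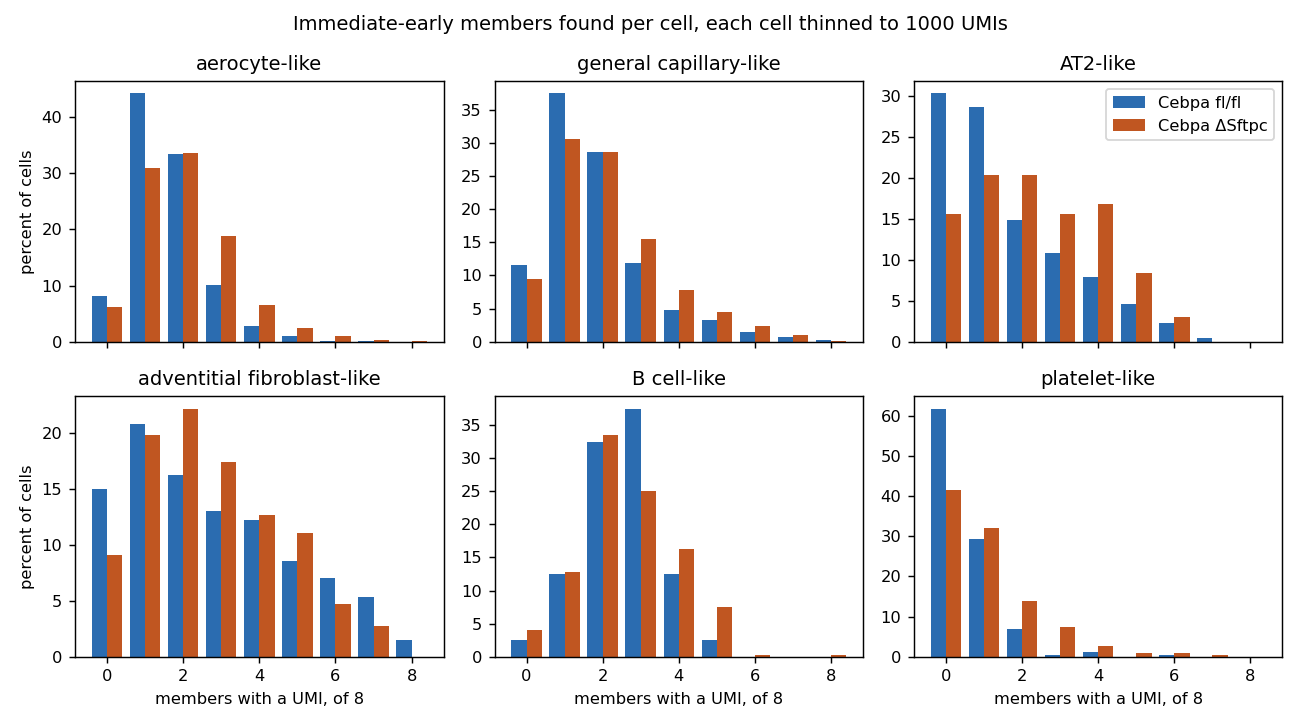
Percent of cells (vertical axis) in which 0 to 8 of the immediate-early genes had a UMI (horizontal axis), each cell thinned to 1000 UMIs, by library. Panels show aerocyte-like, general capillary-like, AT2-like, adventitial fibroblast-like, B cell-like and platelet-like cells. The Cebpa ΔSftpc bars lie further to the right in aerocyte-like cells, where 14.2% and 29.3% of cells had 3 or more. This share was close in adventitial fibroblast-like cells, at 47.9% and 48.8%.

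The libraries also differed in which cells they held. Neutrophil-like (500 cells), monocyte-like (227 cells) and other myeloid cells were nearly all in the Cebpa ΔSftpc library, with fewer than 20 cells of each type in the other, so they were not compared. They were rich in Fos and Junb. Neutrophil-like cells held 3065 CPM (2992–3140) of Fos and 4574 (4484–4665) of Junb, and 86.0% of them had at least 3 of the 8 genes after thinning. Monocyte-like cells held 2149 CPM of Fos, 2563 of Junb and 511.7 of Atf3. Jun was low in both, at 262.6 and 210.6 CPM. In further alternatives chosen after seeing the data, with gated leukocytes left out, the log2 ratio of the immediate-early sum over all cells was 0.14 in place of 0.26. When leukocyte RNA scaled on Ptprc was subtracted from the 12 other types, the median log2 ratio over them was 0.26, and Junb of platelet-like cells changed direction (−0.35 in place of 1.24). The median of 0.28 without subtraction covered 14 types, B cell-like and T cell-like cells included, so the 2 medians are not over the same types.

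Other genes of the same responses were read from fixed lists. Of 26 other immediate-early genes tested over all cells, 23 were higher beyond counting error in the Cebpa ΔSftpc library and 2 lower, with 9 called higher and a median log2 ratio of 0.67. Of all genes tested over all cells, 31.6% were higher and 43.95% lower, and 9.52% were called higher. The highest were Fosl1 (0.378 and 2.96 CPM), Fosl2 (25.2 and 98.7 CPM), both Fos relatives, Btg1 (164.7 and 467.4 CPM), an antiproliferative gene, and Nr4a2 (20.6 and 52.8 CPM), an orphan nuclear receptor. Within types, 21 of 22 were higher and none lower in AT2-like cells (4 called), where 14.6% of all genes were higher, 3.78% lower and 3.33% called higher. In platelet-like cells 11 of 13 were higher and none lower, against 17.06% and 14.1% of all genes. In aerocyte-like cells 19 of 23 were higher and 6 called higher, against 21.9% and 4.01% of all genes. In general capillary-like cells 18 of 24 were higher and 2 called higher, against 20.4% and 2.85%. In adventitial fibroblast-like cells 1 of 25 was higher and 6 lower, against 10.02% and 8.36% of all genes. Of 16 other heat shock genes, 6 were higher and 9 lower over all cells (median −0.10), and Cryab, a small heat shock protein gene of muscle and stroma, was called lower, from 90.04 to 44.39 CPM. Within types, genes of this list were called lower only in AT1-like cells (1 of 10, against 5.55% of all genes). They were called higher in general capillary-like (1 of 16, against 2.85%), pericyte-like (1 of 13, against 1.42%) and platelet-like cells (3 of 12, against 4.8%). Of 8 regulators, 6 were higher over all cells (median 0.23), and Mrtfa, a cofactor of serum response factor, was called, from 9.97 to 21.7 CPM. Hsf1, the main heat shock factor, was at 24.2 and 24.7 CPM. Within types, regulators were called higher only in T cell-like cells (1 of 5, against 2.15% of all genes). They were called lower only in B cell-like cells (1 of 5, against 0.937%). Values over all cells mix types whose shares differed between the libraries, and the part of this in these calls was not tested.

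Outside these lists, the genes whose log2 CPM over the 28 profiles was most like the immediate-early sum were Cct4 (r = 0.83) and Cct5 (0.79), subunits of the TRiC chaperonin, Impdh2 (0.79), Cxxc1 (0.78) and Ppp1r10 (0.78). Those most like the heat shock sum were Lpp (0.89), Pkdcc (0.88), Ndn (0.87), Aspn (0.87) and Sspn (0.86).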

How the data were processed

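The authors deposited unnormalized UMI counts for each gene in each cell barcode, made with Cell Ranger on mm10. The submitters' notes give version 6.1.1 and the file headers 5.0.0. The labels mention sorting and the methods whole-lung suspensions, and whether the loaded cells had been sorted is unclear.

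Cells with under 200 genes or over 20% mitochondrial counts were left out. A cell got a type from at least 3 UMIs of at least 2 markers, at least 3 times every other list (20 UMIs for secretory cells), which leaves out cells with markers of several types; no doublet caller was run. Counts were summed per type and library and divided by all UMIs (CPM), with exact Poisson intervals, exact binomial intervals for shares (Clopper-Pearson) and log2 ratios with exact conditional binomial intervals (for Jun per Junb, an exact conditional odds ratio), all at 95% and for counting error only. No ratio was given for a sum under 3 counts in either library. Cells vary beyond counting error, so an interval that excludes 0 is not a test of genotype.

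The members, lists and gates were chosen with earlier results of these data known. Genes named beside the members were those called over all cells, up to 4 highest and 4 lowest a list, and the 5 most correlated with each sum (log2 of CPM + 10, at least 500 UMIs). Calls were also counted with at least 200 UMIs. The alternatives numbered 16, of which 5 were chosen after seeing the data. The ratio script was tested on simulated data. Python 3.11.15, numpy 2.4.6, pandas 2.3.3, scipy 1.17.1 and matplotlib 3.10.9 were used.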

Additional observations from a re-analysis of the deposited data

Results flagged for a closer look

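For the immediate-early sum and each of the 8 genes, the difference between the libraries had opposite signs in different cell types, each beyond counting error. The differences between types were not tested, since each rests on 1 library per genotype, and each gene is given as the log2 ratio of its highest and lowest type. The immediate-early sum was 0.92 in AT1-like and −0.26 in smooth muscle-like cells. In the same pair of types, Fos was 2.76 and −0.62, Fosb 2.96 and −0.88, Junb 1.38 and −0.75, Egr1 2.24 and −0.93, and Ier2 3.09 and −1.52. Jun was 1.22 in AT1-like and −0.56 in pericyte-like cells, Atf3 2.92 in AT1-like and −0.67 in adventitial fibroblast-like cells, and Jund 0.91 in lymphatic endothelial-like and −0.30 in T cell-like cells. The AT1-like values rest on few UMIs (25 of Fos and 8 of Atf3 in the Cebpa ΔSftpc library) in 32 cells that also held Pecam1 at 522.8 CPM, and the part of endothelial RNA in them was not tested. In T cell-like cells 1 Cebpa fl/fl cell held 47 of the 256 Jund UMIs. Without the highest cell of each library their Jund ratio was −0.19 (−0.40 to 0.03), within counting error. That of pericyte-like cells was then −0.35 (−0.70 to −0.01).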

How the results depend on the processing

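No paired analysis was possible because there was 1 library per genotype, and no replicate could be left out. Under the 14 alternatives run for it, the median log2 ratio over cell types ran from 0.20 to 0.31 for the immediate-early sum and from −0.11 to 0.37, across 0, for the heat shock sum. These medians covered 12 to 14 types for the first and 8 to 11 for the second, so they are not all over the same types. The 0.31 was over 12 types, after subtraction of neutrophil RNA scaled on S100a8 and S100a9. Over all cells, the immediate-early sum (0.26) was 0.24 under a filter of 500 genes and 10% mitochondrial counts, 0.23 with at least 3000 UMIs, 0.29 with mitochondrial, hemoglobin and ribosomal protein genes out of the total, 0.35 with cells thinned to 1000 UMIs, 0.38 as a mean of single-cell CPM, 0.49 averaged over depth classes and 0.24 without the 2% of cells with the most UMIs. The heat shock sum over all cells (0.04) was 0.22 thinned, 0.25 as a mean of single-cell CPM and 0.30 over depth classes. With alternatives chosen after seeing the data, the immediate-early sum was 0.14 without gated leukocytes and 0.14 with the same makeup of gated types, and the heat shock sum 0.20 and 0.47; without the highest cell of each library the heat shock sum was −0.060. Junb in platelet-like cells was −0.35 with leukocyte RNA subtracted by Ptprc. The causes of these shifts were not tested. With at least 200 UMIs a gene, the share of all genes called higher was 1.54% in place of 4.01% in aerocyte-like and 1.33% in place of 2.85% in general capillary-like cells. Cells under 1000 UMIs and types with few cells, such as the 32 AT1-like and 41 pericyte-like cells of the Cebpa ΔSftpc library, limit what single genes can show.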
